A study of Mus musculus with 8 samples.

Results

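The gene expression change that FruArg added to the LPS response of BV-2 microglial cells was examined in 4 of the 8 RNA-Seq libraries of the study, the 2 FruArg+LPS libraries and the 2 LPS libraries, chosen by the treatment and replicate given in their labels. BV-2 is an immortalized line of mouse microglia, the resident macrophages of the brain. FruArg is an Amadori product of glucose and arginine, formed during the preparation of aged garlic extract (AGE), and the comparison asks which transcripts differ when it is present before and during an LPS stimulus. All cells were kept without serum for 4 hours. LPS cells were then given 100 ng/mL LPS (lipopolysaccharide of a rough E. coli strain), and FruArg+LPS cells the same LPS with 3 mM FruArg, added 1 hour earlier. Untreated control cells and AGE+LPS cells (0.5% v/v AGE, added 1 hour before LPS) served as points of reference. The LPS exposure of 20 hours is taken from the study's methods.

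LPS binds TLR4 on microglia and macrophages, and TLR4 signals through 2 adaptor branches. MyD88 leads to NF-kB and MAP kinases and the early cytokines and chemokines, and TRIF leads to IRF3 and interferon beta, which acts back on the cells through its receptor and JAK kinases to switch on interferon-stimulated genes. Macrophages stimulated in this way also make nitric oxide from arginine by Nos2, and meet oxidants and electrophiles with the Nrf2 programme of glutathione, iron storage and heme degradation genes.

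Reads had been counted per gene by the authors, and the 4 libraries held 8720784 and 12069807 counts (LPS, replicates 1 and 2) and 4692715 and 5822113 counts (FruArg+LPS). Values per library are given below in this order as CPM, counts scaled to the library total after TMM normalization, and 3 counts correspond to 0.344, 0.249, 0.639 and 0.515 CPM before that normalization, a limit that covers counting error only. Replicate 1 of every group was sequenced in lane 3 and replicate 2 in lane 6, so each lane holds a complete set of the 4 groups. FruArg+LPS replicate 1 stood apart from the other 7 libraries. It held 14607 genes with a count, against 16341 to 18728 in the others. Thinned to 2707500 counts, the total of the smallest library, 13881 genes would be detected in it, against 14935 to 15844, and genes with exactly 1 count made up 4.83% of its detected genes, against 9.40% to 13.3%. Counts of changed genes are therefore also given without this library.

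The cells carried the transcripts of the macrophage lineage. Of the 11 microglia and macrophage markers examined, 9 passed the filter on low counts, and the summed level of all 11 was 2249.7 and 2614 CPM in the LPS libraries and 2912 and 2922 CPM in the FruArg+LPS libraries. Ptprc, the common leukocyte phosphatase CD45, had the highest mean over the 4 libraries, at 594 and 994 CPM with LPS and 468 and 757 CPM with FruArg+LPS. In FruArg+LPS replicate 1 it lay below Csf1r (666 CPM), Cd68 (612 CPM) and Tyrobp (598 CPM). The FruArg+LPS libraries had the higher summed level in both lanes. Of the homeostatic microglial markers, Cx3cr1 had at most 4 counts in any of the 4 libraries, Tmem119 had 6 counts in FruArg+LPS replicate 1 and 0 in the other libraries, and P2ry12 had 1.62 and 1.65 CPM in the LPS and 0.229 and 0.95 CPM in the FruArg+LPS libraries. In these bulk libraries, fewer cells of a kind and less RNA per cell cannot be told apart. Markers of astrocytes, neurons, oligodendrocytes and fibroblasts summed to at most 3.03 CPM per list in any of the 4 libraries, and none of these genes passed the filter. T cell markers summed to between 7.60 and 11.1 CPM, nearly all of it Lck, and neutrophil markers to between 1.19 and 3.61 CPM, of which Camp was the most abundant. Endothelial markers summed to 125 and 79.2 CPM in LPS cells and 80.9 and 77.7 CPM in FruArg+LPS cells, most of it Vwf. Kdr, which also passed the filter, had 9.25 and 7.26 CPM in LPS cells and 6.19 and 4.75 CPM in FruArg+LPS cells. In control cells Kdr was at 77.2 and 77.0 CPM. Pecam1 had 0.875 and 1.38 CPM in LPS cells and 0 and 0.38 CPM in FruArg+LPS cells and did not pass the filter, and Cdh5 had at most 2 counts in any of the 4 libraries.

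FruArg on top of LPS lowered interferon-stimulated genes and raised glutathione genes and other targets of Nrf2, and cytokine, chemokine and effector genes changed in both directions. Of 12071 genes tested, 766 (6.35%) were differentially expressed (DEGs, at least 2-fold with an edgeR adjusted p below 0.05, lane as a block), 420 (3.48%) lowered and 346 (2.87%) raised by FruArg. The median change of the lowered DEGs was 2.61-fold and that of the raised DEGs 2.42-fold, and 80 lowered and 28 raised genes changed at least 4-fold. Within the lanes, 415 of the lowered and 342 of the raised DEGs moved the same way in lane 3 and lane 6, and 247 and 182 of them by at least 2-fold in each. Without a minimum on the fold change, 1130 genes (9.36%) were lowered and 993 (8.23%) raised at an adjusted p below 0.05. Below, a gene is said to have risen or fallen where its adjusted p was under this value, and a list is described by the number of its tested members that were DEGs and by its median log2 fold change, beside the median of -0.01 over all genes tested. Genes named below were mostly chosen by the size of their change, which favours groups that do not overlap. The share of all genes tested without overlap was not counted.

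The calls rest on the lane block. Of the 126 genes of the naming rule, 97 had a call with the block, and all 97 lost it without the block. Without it edgeR called 0 DEGs, with 1543 genes at an unadjusted p below 0.05. DESeq2 called 194 DEGs by group only and 380 with the lane as a term. Fits with a library left out used all 4 groups, and the fit of that form with every library gave 446 lowered and 407 raised DEGs. Without FruArg+LPS replicate 1 there were 355 lowered (2.61%) and 302 raised DEGs (2.22%), of which 249 and 195 were DEGs of the same direction in the 4-library fit. Without FruArg+LPS replicate 2 the count was 1846 and without LPS replicate 1 it was 507. Of the lowered DEGs, 33 had no count in FruArg+LPS replicate 1 and 2 had none in replicate 2 (Awat2 and Gm26621, named after their values were seen).

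**Figure D1:**
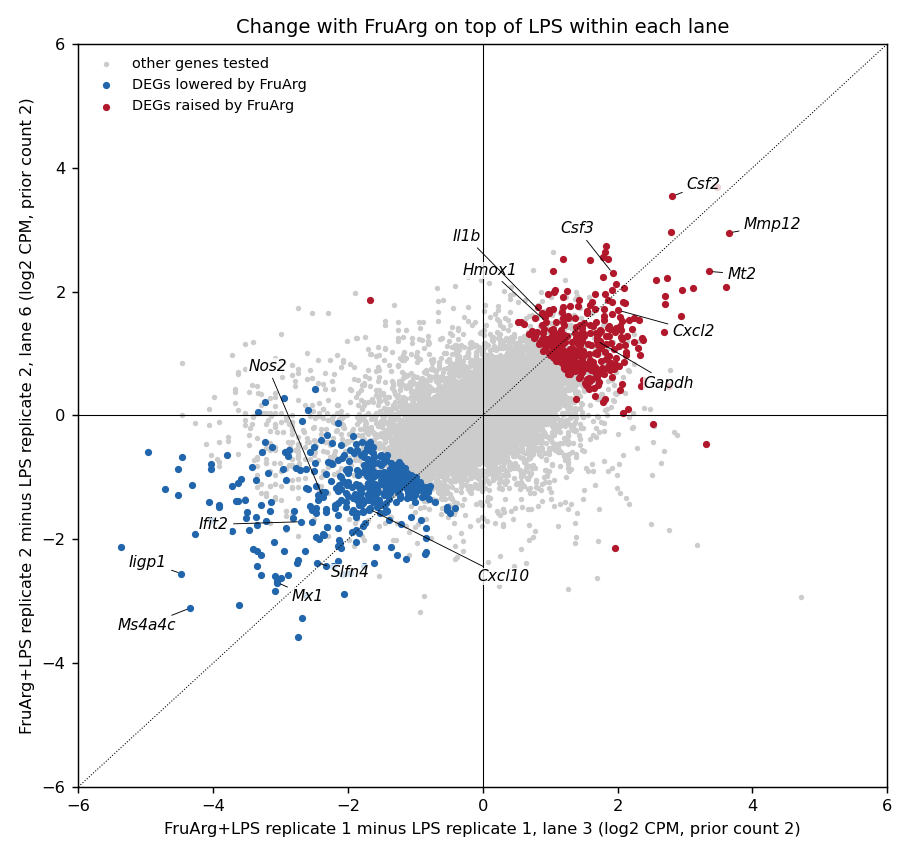
Change with FruArg on top of LPS within lane 3 (horizontal axis) and within lane 6 (vertical axis), each the difference in log2 CPM between 1 FruArg+LPS and 1 LPS library, for all 12071 genes tested, with lowered DEGs in blue and raised DEGs in red. Of the 420 lowered DEGs 415 had the same sign in both lanes, and of the 346 raised DEGs 342 did.

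The change also followed the base composition of the transcripts. In the lowest of 10 equal groups of genes by GC content (27.5% to 41.1% in the longest transcript) the median log2 fold change was -0.43, and in the highest group (57.2% to 78.6%) it was 0.40. This trend ran from -0.38 to 0.28 in lane 3 and from -0.47 to 0.48 in lane 6, so both lanes had it. The LPS libraries, set against each other, showed a trend of similar size, from 0.53 to -0.53 (lane 6 minus lane 3). The difference of AGE+LPS from LPS ran less far, from -0.124 to 0.0533 in lane 3 and from -0.165 to 0.0958 in lane 6. The lowest group held 109 of the lowered and 8 of the raised DEGs, and the highest group 8 and 111. With the trend taken into the offsets of the same fit, 292 genes (2.42%) were lowered and 217 (1.8%) raised, 247 and 187 of them shared with the fit without it. What part of the trend belongs to the treatment was not tested, and GC-adjusted values are given below where they move a result.

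**Figure D2:**
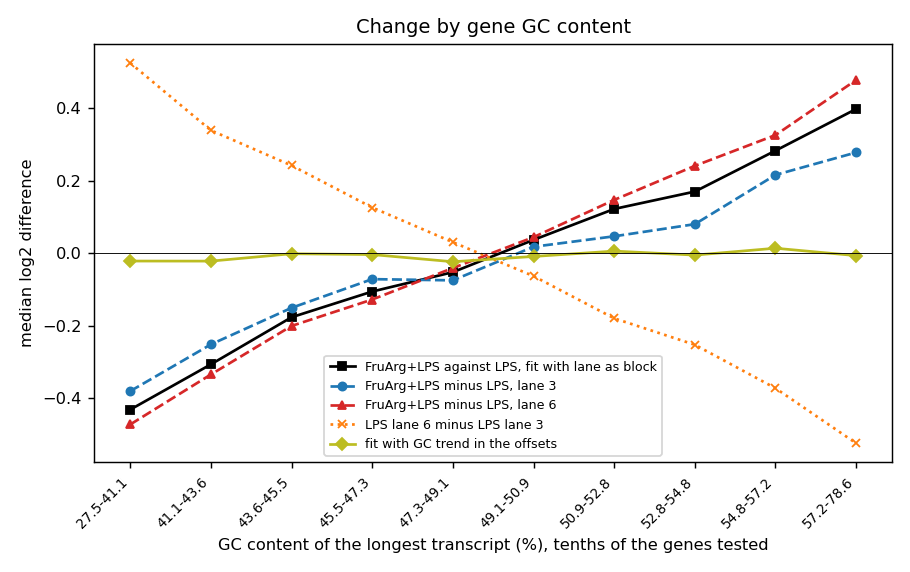
Median log2 difference in 10 equal groups of the tested genes by GC content of the longest transcript (horizontal axis, percent), for the FruArg+LPS against LPS fit, for each lane, for the LPS libraries of the 2 lanes, and for the fit with the GC trend in its offsets. The treatment difference runs from -0.43 to 0.40 and the lane difference of LPS cells from 0.53 to -0.53.

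FruArg lowered antiviral interferon-stimulated genes, the effectors that interferon induces against viral RNA, DNA and replication. Of 37 tested, 15 were lowered DEGs (12 to 20 with 1 of the 4 libraries left out and 13 with the GC trend in the offsets), and 28 fell at an adjusted p below 0.05. Their median log2 fold change was -0.84, with -1.07 in lane 3 and -0.66 in lane 6, and it was -0.84 with the GC trend in the offsets and -0.66 without FruArg+LPS replicate 1. Mx1 (ENSMUSG00000000386, chromosome 16, 97447035 to 97462907, in the GENCODE M21 annotation of GRCm38, as for the positions below), a dynamin-like GTPase that blocks influenza virus, was at 137 and 276 CPM in the LPS libraries and 16.3 and 42.2 CPM in the FruArg+LPS libraries. Both FruArg+LPS values lay below both LPS values, a change of -2.86 in log2 with SE 0.20 and an edgeR adjusted p of 3.4e-19. In untreated cells Mx1 was at 4.05 and 4.96 CPM, so the FruArg+LPS level lay between those of control and LPS cells. Ifit2 (ENSMUSG00000045932, chromosome 19, 34550694 to 34576419), which binds foreign RNA and restrains its translation, went from 2137 and 3702 to 329.8 and 1125 CPM (-2.20, SE 0.23, edgeR adjusted p = 1.0e-11). Ifit1bl1, a paralog of Ifit1, was at 206 and 649.9 CPM with LPS and 24.5 and 102 CPM with FruArg+LPS (-2.85, SE 0.19, edgeR adjusted p = 2.3e-19). The groups did not overlap for either gene, and within each group replicate 2 was the higher. Rsad2 (ENSMUSG00000020641, chromosome 12, 26442746 to 26456452), the radical SAM enzyme viperin and the most abundant member of the list, had 8261 and 11743 CPM in LPS cells and 1861 and 5014 CPM in FruArg+LPS cells (-1.68, SE 0.25, edgeR adjusted p = 3.1e-07), against 147 and 223 CPM in control cells. Ifi44, a further interferon-inducible gene, fell from 61.1 and 119 to 10.8 and 30.4 CPM (-2.19, SE 0.21, edgeR adjusted p = 5.7e-13). Reads of the near-identical Ifit and Oas copies may have been divided among them, so values of single copies are uncertain.

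**Figure D3:**
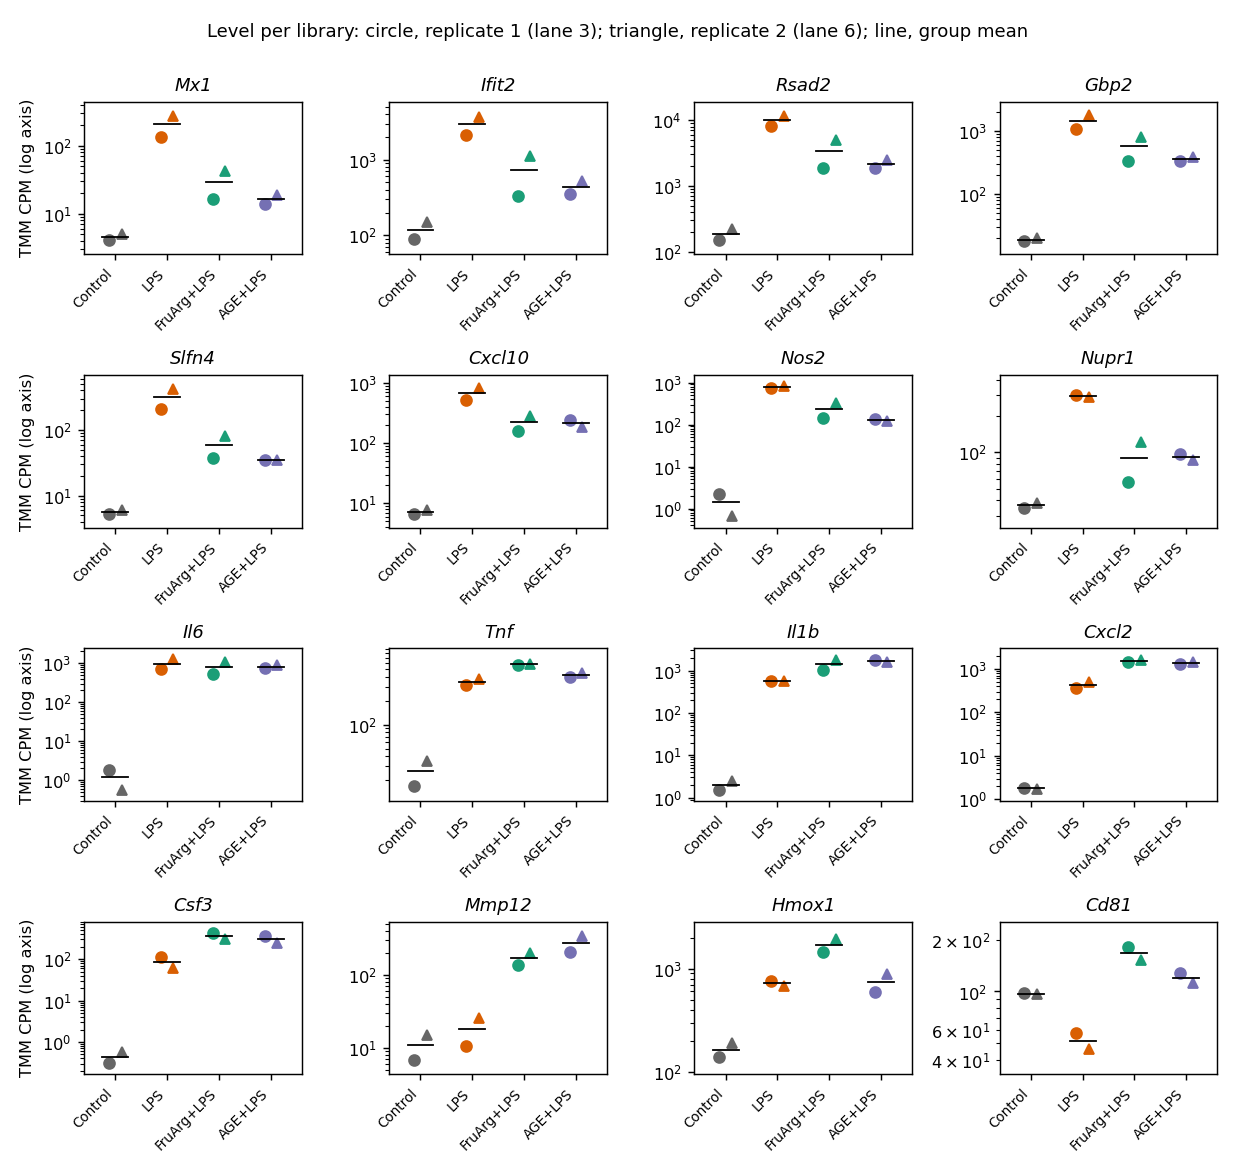
TMM-normalized CPM on a log axis for 16 genes in each of the 8 libraries (circles replicate 1, triangles replicate 2, lines the mean of the 2). For the interferon-stimulated genes and Nos2 the FruArg+LPS libraries lie between the control and the LPS libraries, for Cxcl2, Csf3, Mmp12, Il1b and Hmox1 they lie above both, and for Il6 they overlap the LPS libraries.

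Interferon-inducible GTPases, which attack the membranes of vacuoles that hold pathogens, were mostly lowered. Of 15 tested, 10 were lowered DEGs, 10 with the GC trend in the offsets and 8 without FruArg+LPS replicate 1, and 15 had a negative log2 fold change (median -1.36). Gbp2, a guanylate-binding protein and the most abundant of them, was at 1084 and 1783 CPM with LPS and 334 and 813 CPM with FruArg+LPS (-1.41, SE 0.20, edgeR adjusted p = 1.9e-07). Iigp1, an immunity-related GTPase, was at 11.1 and 43.9 CPM with LPS and 0.229 and 7.22 CPM with FruArg+LPS (-3.08, SE 0.37, edgeR adjusted p = 9.5e-10), with a larger lane difference than Gbp2. It had 1 count in FruArg+LPS replicate 1 and passed the filter on low counts through its LPS libraries. The number of lowered DEGs in this list partly follows from that filter. With a library left out the log2 fold change of Gbp2 was -1.0 without FruArg+LPS replicate 1, just under 2-fold, and that of Iigp1 was -5.62 without FruArg+LPS replicate 2. Its relatives Igtp (-1.54) and Ifi47 (-1.70) fell in both lanes as well. In each of these 4 genes the higher FruArg+LPS library, replicate 2, was still below the lower LPS library.

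The Schlafen family, growth-regulating and tRNA-binding proteins that interferon induces in myeloid cells, had 6 lowered DEGs of 7 tested, a number that did not change with any 1 of the 4 libraries left out, and a median log2 fold change of -1.72. Slfn4 (chromosome 11, 83175186 to 83190216) went from 208 and 422 to 37.6 and 80.8 CPM (-2.42, SE 0.18, edgeR adjusted p = 2.8e-17) and Slfn1 from 25.7 and 43.4 to 3.21 and 7.03 CPM (-2.77, SE 0.31, edgeR adjusted p = 6.9e-11). The changes of Slfn4 within the lanes were nearly equal, -2.46 in lane 3 and -2.38 in lane 6. The most abundant member, Slfn2, changed least, from 1534 and 1829.8 to 822 and 1446 CPM (-0.61), and its call was lost without FruArg+LPS replicate 1 (-0.35), LPS replicate 1 (-0.53) or LPS replicate 2 (-0.70). Of the membrane proteins of the Ms4a family, 3 of 5 tested were lowered DEGs (median -1.04, and -0.70 with 2 DEGs with the GC trend in the offsets). Ms4a4c (ENSMUSG00000024675, chromosome 19, 11404770 to 11427246) had the largest fall of all lowered genes with a mean of at least 5 CPM and at least 2-fold in both lanes, from 42.6 and 101 to 1.83 and 11.4 CPM (-3.54, SE 0.26, edgeR adjusted p = 6.2e-18), and its log2 fold change was -4.57 without FruArg+LPS replicate 2. The others were Ms4a6c (-1.57) and Ms4a6b (-1.04), the latter under 2-fold at -0.99 without FruArg+LPS replicate 1 and -0.93 without LPS replicate 1, and at -0.63 with the GC trend in the offsets. For Ms4a4c the control libraries of the same lanes had 1.87 and 4.49 CPM, so the FruArg+LPS level was near the control level in lane 3 and above it in lane 6. Ifi209 and Mndal, nuclear DNA-binding proteins of the interferon-inducible HIN-200 family, were also among the leading lowered genes. The family was not examined as a list. Ifi209 was at 211 and 578 CPM with LPS and 24.3 and 139 CPM with FruArg+LPS (-2.52), and Mndal at 93.7 and 281 CPM with LPS and 11.9 and 61.0 CPM with FruArg+LPS (-2.51). With the GC trend in the offsets these values were -2.11 and -2.09, and that of Ifi209 was -3.16 without FruArg+LPS replicate 2. For both genes the higher FruArg+LPS library, replicate 2, lay below the lower LPS library, replicate 1.

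Some upstream genes of the interferon response fell, by less than 2-fold. Among interferon receptors, JAK kinases, STAT and IRF factors, 1 of 19 tested was a raised DEG, 6 fell at an adjusted p below 0.05 (as did 9.36% of all genes tested), and the median log2 fold change was -0.19. Irf7, the factor that amplifies the interferon response, was at 882 and 989 CPM with LPS and 429 and 681 CPM with FruArg+LPS (-0.78, SE 0.19, edgeR adjusted p = 0.0023), and its call was lost without LPS replicate 1 (-0.66). With the GC trend in the offsets Irf7 was at -1.03, a lowered DEG. Without FruArg+LPS replicate 2 the list held 3 lowered DEGs. Socs3, an inhibitor of cytokine receptor signalling, was the raised DEG, from 46.4 and 29.7 to 99 and 85.3 CPM (1.32, SE 0.19, edgeR adjusted p = 2.4e-07). With the GC trend in the offsets its change was 0.94, under 2-fold. Ifnb1, the gene of interferon beta, did not pass the filter on low counts. Genes of MHC class I presentation, which interferon also induces, had negative log2 fold changes in 16 of 16 (median -0.43, -0.70 in lane 3 and -0.21 in lane 6), with 2 DEGs (0 to 3 with 1 of the 4 libraries left out). These were the non-classical class I gene H2-T23 (-1.15) and the immunoproteasome subunit Psmb10 (-1.07). Without LPS replicate 1 (-0.72 and -0.69) and in DESeq2 with the lane as a term (-1.19 and -1.10) the calls of both were lost, and without FruArg+LPS replicate 1 neither reached 2-fold (-0.68 and -0.66). B2m, the light chain of class I molecules, was at 2808 and 4298 CPM with LPS and 2465 and 2805 CPM with FruArg+LPS (-0.39, SE 0.22, edgeR adjusted p = 0.22), with both FruArg+LPS values below the lower LPS value, and it passed the test without FruArg+LPS replicate 1 (-0.56).

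**Figure D4:**
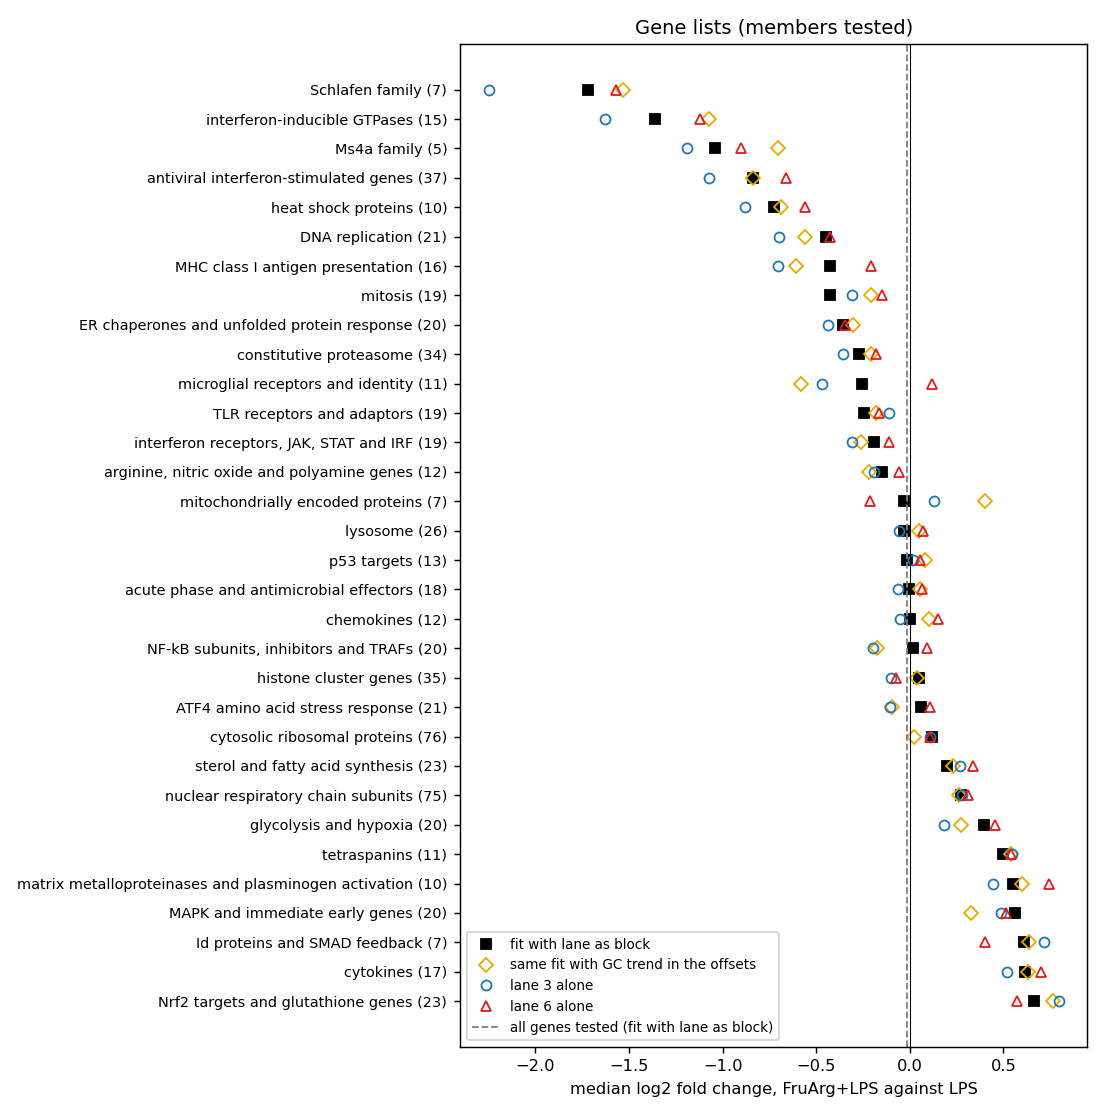
Median log2 fold change of FruArg+LPS against LPS (horizontal axis) for each gene list other than the markers and the genes taken from the study, with the number of tested members in parentheses, in the fit with the lane as block, in the same fit with the GC trend in its offsets, and within lane 3 and lane 6. Of the lists drawn, the Schlafen family lies lowest at -1.72 and the Nrf2 and glutathione genes highest at 0.66 in the fit with the lane as block, beside -0.01 over all genes tested (dashed line).

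The promoters of the lowered genes were inspected for the interferon-stimulated response element (ISRE), a promoter element of genes that interferon induces, since these genes moved together. Promoter sequences from RefSeq (build GRCm38.p6) were matched by symbol, chromosome and strand to 8469 of the tested genes, and the 250 bases before the start were searched on both strands. The letters GAAANNGAA were present in 54 of 284 promoters of lowered DEGs (19.0%), 9 of 225 of raised DEGs (4.00%), 543 of 8469 of the genes tested (6.41%) and 7.12% of all 32817 promoters. Among the lists they were found in 8 of 9 promoters of interferon-inducible GTPases, 11 of 27 of antiviral genes and 3 of 7 of Schlafen genes. An NF-kB site was present in 26 of 225 promoters of raised DEGs (11.6%), 27 of 284 of lowered DEGs (9.51%), 8.77% of the genes tested and 7.25% of all promoters. The shares for the other motifs, in lowered DEGs, raised DEGs, genes tested and all promoters, were 9.15%, 5.78%, 4.23% and 6.75% for AP-1 (TGANTCA). For the antioxidant response element of Nrf2 (TGACNNNGC) they were 16.2%, 10.2%, 12.2% and 10.2%. For the C/EBP-ATF site (TGATGNAA) they were 4.58%, 0.889%, 2.02% and 3.45%, and for E2F (TTTNGCGC) 1.76%, 0.889%, 2.17% and 1.13%. Among the lists, an NF-kB site was found in 5 of 7 promoters of chemokines and 4 of 12 of cytokines. AP-1 was found in 3 of 7 of matrix metalloproteinase and plasminogen activation genes, and the antioxidant response element in 6 of 20 of Nrf2 and glutathione genes. A match is a run of letters and not a measured binding site, and the groups differ in GC content, with a median of 43.8% in transcripts of lowered and 54.7% of raised DEGs.

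Shown to let the element be compared between family members, these are the 250 bases upstream of the start, 5′ to 3′ in the direction of the gene, of the 5 named lowered DEGs with the largest change that held an ISRE match and whose RefSeq start lay within 100 bases of the GENCODE start, with the match (on either strand) in capitals.
Ifit1bl1 (chr19:34601969-34602218, minus strand): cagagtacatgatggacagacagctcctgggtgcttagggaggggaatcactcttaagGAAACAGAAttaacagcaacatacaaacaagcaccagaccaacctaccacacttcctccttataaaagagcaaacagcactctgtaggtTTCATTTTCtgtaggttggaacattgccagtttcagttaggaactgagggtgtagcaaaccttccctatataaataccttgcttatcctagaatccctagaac
Slfn9 (chr11:82991831-82992080, minus strand): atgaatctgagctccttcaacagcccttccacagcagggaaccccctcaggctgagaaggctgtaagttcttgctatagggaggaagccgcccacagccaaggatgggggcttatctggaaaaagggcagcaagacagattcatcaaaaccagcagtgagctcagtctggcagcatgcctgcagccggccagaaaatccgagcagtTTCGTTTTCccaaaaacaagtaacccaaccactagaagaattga
Slfn8 (chr11:83020811-83021060, minus strand): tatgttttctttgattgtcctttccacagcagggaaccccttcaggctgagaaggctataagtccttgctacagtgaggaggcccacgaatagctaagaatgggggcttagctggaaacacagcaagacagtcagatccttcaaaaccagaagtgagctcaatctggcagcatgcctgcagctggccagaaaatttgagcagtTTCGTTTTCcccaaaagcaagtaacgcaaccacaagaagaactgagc
Rsad2 (chr12:26456453-26456702, minus strand): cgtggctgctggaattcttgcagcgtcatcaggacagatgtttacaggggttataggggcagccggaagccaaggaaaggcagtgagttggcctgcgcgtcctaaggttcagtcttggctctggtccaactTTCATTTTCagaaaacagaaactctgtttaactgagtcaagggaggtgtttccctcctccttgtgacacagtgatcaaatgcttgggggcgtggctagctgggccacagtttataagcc
Gbp3 (chr3:142559794-142560043, plus strand): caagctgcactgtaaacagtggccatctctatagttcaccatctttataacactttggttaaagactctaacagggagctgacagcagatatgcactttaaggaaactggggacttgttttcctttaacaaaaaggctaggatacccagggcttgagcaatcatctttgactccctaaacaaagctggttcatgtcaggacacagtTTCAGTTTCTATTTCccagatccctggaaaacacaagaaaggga
In the neighbouring Slfn9 and Slfn8 and in Gbp3 the match lay within 47 bases of the start, and in Rsad2 it began 119 bases before it.

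Of 19 receptors and adaptors of the TLR pathway tested, 2 were lowered DEGs, and 4 fell and 1 rose at an adjusted p below 0.05 (median -0.25). Besides the genes below these were Tlr1 (-0.66) and Tlr7 (-0.78), named after their values were seen, with calls lost without LPS replicate 2 (-0.56 and -0.64), and with the GC trend in the offsets (-0.51 and -0.44). That of Tlr1 was also lost without FruArg+LPS replicate 2 (-0.48) and in DESeq2 with the lane as a term (-0.68). Tlr3, the endosomal receptor of double-stranded RNA, was at 34.4 and 84.3 CPM with LPS and 8.94 and 28.5 CPM with FruArg+LPS (-1.71, SE 0.22, edgeR adjusted p = 8.7e-09), and the groups did not overlap. Ticam2, the bridging adaptor of the TRIF branch, was at 30.1 and 32.3 CPM with LPS and 12.6 and 15.6 CPM with FruArg+LPS (-1.14, SE 0.26, edgeR adjusted p = 9.2e-04, and -0.99 with the GC trend in the offsets), with the call lost without LPS replicate 2 (-1.02) and the change under 2-fold at -0.96 without FruArg+LPS replicate 1. Cd14, the co-receptor that hands LPS to TLR4, was higher in both lanes, at 925 and 764 CPM with LPS and 1263 and 1208 CPM with FruArg+LPS (0.56, SE 0.20, edgeR adjusted p = 0.036). This call was lost with the GC trend in the offsets (0.43), with a filter of at least 10 counts in every library (0.53) and without LPS replicate 1 (0.62) or LPS replicate 2 (0.47).

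NF-kB subunits, inhibitors and TRAF adaptors gave 0 DEGs in edgeR among 20 tested, with 3 at an unadjusted p below 0.05 and 0 in DESeq2 with the lane. Of them 2 fell at an adjusted p below 0.05, the subunit Rel (-0.92) and the TRAF-binding Tank (-0.80), named after their values were seen. The call of Rel was lost at -0.60 without FruArg+LPS replicate 1 and -0.72 without LPS replicate 1, and it was a lowered DEG at -1.34 without FruArg+LPS replicate 2 and -1.15 without LPS replicate 2. The call of Tank was lost with the GC trend in the offsets (-0.36). The median log2 fold change of the list was 0.02, -0.20 in lane 3 and 0.09 in lane 6, so its sign differed between lanes. With the GC trend in the offsets the median was -0.18. Nfkb1, the p50 precursor, was at 394 and 386 CPM with LPS and 410.0 and 439.9 CPM with FruArg+LPS (0.13, SE 0.18, edgeR adjusted p = 0.68). Nfkbia, the feedback inhibitor, was at 578 and 448 CPM with LPS and 509.9 and 623 CPM with FruArg+LPS (0.16, SE 0.19, edgeR adjusted p = 0.63), and the TNF receptor adaptor Traf1 at 395 and 355 CPM with LPS and 329.8 and 416 CPM with FruArg+LPS (-0.01, SE 0.18, edgeR adjusted p = 0.99). For Nfkbia and Traf1 the FruArg+LPS values overlapped the LPS values, and for Nfkb1 they lay above them by less than the test resolved. Among MAP kinases and immediate early genes 1 of 20 was a raised DEG (median 0.56, and 0.33 with the GC trend in the offsets), and 0 to 3 were with a library left out. The DEG was the p38 kinase activator Map2k3, at 11 and 10.02 CPM with LPS and 27.0 and 17.9 CPM with FruArg+LPS (1.07). It was under 2-fold with the GC trend in the offsets (0.87), and its call was lost in DESeq2 with the lane as a term (1.05) and without FruArg+LPS replicate 1 (0.77), LPS replicate 1 (1.04) or LPS replicate 2 (1.10).

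Cytokine genes moved in both directions, mostly upward. Of 17 tested, 5 were raised DEGs and 1 was a lowered DEG (2 with the GC trend in the offsets, and 4 to 6 raised and 1 to 2 lowered with 1 of the 4 libraries left out), and the median log2 fold change was 0.62. Csf3 (ENSMUSG00000038067, chromosome 11, 98701263 to 98703629), the granulocyte colony-stimulating factor, was at 113 and 61.9 CPM in the LPS libraries and 429.9 and 306 CPM in the FruArg+LPS libraries (2.12, SE 0.18, edgeR adjusted p = 5.5e-15). Control cells had 0.311 and 0.562 CPM, so FruArg+LPS cells carried more of this transcript than LPS cells, which in turn had more than control cells. Il1a, the gene of interleukin-1 alpha, was at 152 and 254 CPM in LPS cells and 422 and 673 CPM in FruArg+LPS cells (1.44, SE 0.18, edgeR adjusted p = 5.1e-09). Il1b, the gene of interleukin-1 beta, was at 572 and 576 CPM with LPS and 1050.3 and 1804 CPM with FruArg+LPS (1.27, SE 0.20, edgeR adjusted p = 2.4e-06). Without FruArg+LPS replicate 2 the log2 fold change of Il1b was 0.85, under 2-fold. Neither gene's groups overlapped, and both libraries with FruArg were above control cells, which had 1.56 and 2.43 CPM of Il1b. Il1f9, the gene of interleukin-36 gamma, rose from 1.75 and 3.86 to 8.48 and 14.3 CPM (2.05, SE 0.45, edgeR adjusted p = 4.6e-04) and had no count in control cells. Csf2, the granulocyte-macrophage colony-stimulating factor, had 3 counts over both LPS libraries and 35 over both FruArg+LPS libraries, a ratio of 22.9 after scaling with an exact 95% counting interval from 7.21 to 116, and the call was lost without LPS replicate 2 (log2 fold change 3.38). LPS replicate 2 had no count of it, so no fold is given without LPS replicate 1. Csf2 passed the filter on low counts through the FruArg+LPS libraries, so its place among the raised DEGs of the list partly follows from that filter. It was not tested with at least 10 counts required in every library. The lowered DEG was Il18, an interleukin-1 relative that induces interferon gamma, from 13.7 and 26.1 to 2.98 and 12.9 CPM (-1.46, SE 0.32, edgeR adjusted p = 5.9e-04, and -2.17 without FruArg+LPS replicate 2). Tnf rose less, from 314 and 372 to 566 and 587 CPM (0.76, SE 0.18, edgeR adjusted p = 0.0017), with log2 fold changes of 0.78 without LPS replicate 1 and 0.72 without LPS replicate 2 that did not pass the test. Il6 was at 689.9 and 1244 CPM with LPS and 543 and 1057 CPM with FruArg+LPS (-0.28, SE 0.19, edgeR adjusted p = 0.34), so its groups overlapped and no difference was detected. With the GC trend in the offsets the sign turned (0.12).

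Chemokines moved in both directions. Of 12 tested, 3 were raised and 2 lowered DEGs (2 to 3 and 2 to 3 with 1 of the 4 libraries left out), and 6 had a positive and 6 a negative log2 fold change. The neutrophil attractants Cxcl2 and Cxcl3, ligands of CXCR2, rose. Cxcl2 (ENSMUSG00000058427, chromosome 5, 90903871 to 90905938) was at 359 and 494 CPM in LPS cells, 1447 and 1604 CPM in FruArg+LPS cells and 1.87 and 1.69 CPM in control cells (1.86, SE 0.20, edgeR adjusted p = 4.6e-11). Cxcl3 was at 1.12 and 2.57 CPM with LPS and 8.94 and 10.6 CPM with FruArg+LPS (2.44, SE 0.52, edgeR adjusted p = 3.3e-04). It had 9 counts in LPS replicate 1 and was not tested with at least 10 counts required in every library. Cxcl3 passed the filter on low counts through its FruArg+LPS libraries, so the number of raised DEGs in this list partly follows from that filter. Ccl3, a macrophage inflammatory protein, rose from 843 and 1318 to 1907 and 2470.1 CPM (1.05, SE 0.21, edgeR adjusted p = 1.1e-04), by less than 2-fold at 0.86 without FruArg+LPS replicate 1. All 3 were higher in FruArg+LPS cells in both lanes, with no overlap between the groups. Cxcl10, the interferon-induced ligand of CXCR3, fell instead, from 519 and 809 to 161 and 284 CPM (-1.59, SE 0.19, edgeR adjusted p = 5.5e-10), as did Ccl12, a monocyte attractant, from 59.4 and 96.5 to 13.5 and 21.7 CPM (-2.14, SE 0.21, edgeR adjusted p = 1.3e-12). Their changes were similar in both lanes, -1.69 in lane 3 and -1.51 in lane 6 for Cxcl10 and -2.11 in lane 3 and -2.14 in lane 6 for Ccl12. The upstream sequences of the raised Cxcl3 and Cxcl2, which lie on the same stretch of chromosome 5, and of Mmp12 are shown with their NF-kB matches in capitals.
Cxcl3 (chr5:90785851-90786100, plus strand): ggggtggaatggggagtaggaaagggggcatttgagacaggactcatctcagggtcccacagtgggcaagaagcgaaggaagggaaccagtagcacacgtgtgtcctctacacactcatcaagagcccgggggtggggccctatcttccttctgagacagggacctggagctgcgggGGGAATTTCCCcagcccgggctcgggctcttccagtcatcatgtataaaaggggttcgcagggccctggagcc
Cxcl2 (chr5:90903649-90903898, plus strand): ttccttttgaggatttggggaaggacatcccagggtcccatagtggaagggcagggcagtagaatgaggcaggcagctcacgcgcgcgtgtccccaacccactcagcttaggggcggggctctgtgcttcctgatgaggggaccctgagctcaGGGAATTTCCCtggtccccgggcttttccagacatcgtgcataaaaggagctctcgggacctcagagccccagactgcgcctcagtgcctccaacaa
Mmp12 (chr9:7344147-7344396, plus strand): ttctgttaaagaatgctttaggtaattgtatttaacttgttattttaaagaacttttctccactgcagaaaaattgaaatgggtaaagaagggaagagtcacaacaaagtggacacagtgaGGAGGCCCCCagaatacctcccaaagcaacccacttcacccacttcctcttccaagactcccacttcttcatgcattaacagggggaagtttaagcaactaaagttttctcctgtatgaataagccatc
Overlapping matches on either strand form a single run in Cxcl3 and Cxcl2, beginning 73 and 97 bases before the start.

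Effector genes of the activated macrophage moved in both directions. In the list of acute phase and antimicrobial effectors, 4 of 18 were lowered and 1 raised DEGs, with 9 of the genes below 0 and 9 above it in log2 fold change (median -0.01). Nos2 (ENSMUSG00000020826, chromosome 11, 78920787 to 78960254), the inducible nitric oxide synthase that uses arginine, was at 758 and 808 CPM in the LPS libraries and 146 and 323 CPM in the FruArg+LPS libraries (-1.83, SE 0.20, edgeR adjusted p = 7.7e-11), against 2.18 and 0.655 CPM in control cells. FruArg+LPS replicate 2 had the higher of the 2 FruArg values and was still below both LPS libraries, and the log2 fold change was -1.26 without FruArg+LPS replicate 1 and -2.46 without FruArg+LPS replicate 2. The costimulatory molecule Cd86 went from 206 and 265 to 74.9 and 112 CPM (-1.34, SE 0.17, edgeR adjusted p = 1.2e-08) and the early activation antigen Cd69 from 24.5 and 32.4 to 9.40 and 7.22 CPM (-1.77, SE 0.30, edgeR adjusted p = 5.0e-06), without overlap of the groups. The other lowered DEG of the list was Cd40, a further costimulatory receptor (-1.14, and under 2-fold at -0.74 without FruArg+LPS replicate 1). Slpi, a secreted inhibitor of neutrophil proteases, was the raised member, from 129 and 95.1 to 338 and 227 CPM (1.33, SE 0.17, edgeR adjusted p = 1.3e-08). Acod1, the itaconate-producing enzyme and the most abundant member, was at 6255 and 8412 CPM with LPS and 6058 and 8992 CPM with FruArg+LPS (0.03, SE 0.23, edgeR adjusted p = 0.94), with overlapping groups. Beyond Nos2, the arginine, nitric oxide and polyamine list of 12 tested genes held no DEG (median -0.15).

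The largest rise of a gene with a mean of at least 5 CPM and at least 2-fold in both lanes was that of Mmp12 (ENSMUSG00000049723, chromosome 9, 7344381 to 7369499), the macrophage elastase. It was at 10.5 and 26 CPM in the LPS libraries, 136 and 203 CPM in the FruArg+LPS libraries and 6.85 and 14.8 CPM in the control libraries, a change of 3.30 in log2 with SE 0.21 and an edgeR adjusted p of 5.6e-21. Every FruArg+LPS value was more than 5 times the highest LPS value, and the change was 3.66 in lane 3 and 2.95 in lane 6. Of the 10 tested genes of matrix metalloproteinases and plasminogen activation, 4 were raised DEGs (2 to 4 with 1 of the 4 libraries left out, median 0.55). Plaur, the urokinase receptor, rose from 61.7 and 34.5 to 190.5 and 124 CPM (1.74, SE 0.18, edgeR adjusted p = 2.0e-11). Serpinb2, an inhibitor of plasminogen activators, was at 0.25 and 1.65 CPM with LPS and 3.21 and 6.46 CPM with FruArg+LPS (2.49), with the call lost without FruArg+LPS replicate 2 (1.56) or LPS replicate 1 (1.54) and a log2 fold change of 4.19 without LPS replicate 2. Mmp9, the gelatinase B gene, had 3 counts over the LPS libraries and 25 over the FruArg+LPS libraries (ratio 16.3, exact 95% counting interval 4.99 to 84.6), and its call was lost with a filter of at least 1 count (log2 fold change 4.03) or without LPS replicate 1 (2.88). LPS replicate 1 had no count of it, so no fold is given without LPS replicate 2. Serpinb2 and Mmp9 passed the filter on low counts through their FruArg+LPS libraries, so the number of raised DEGs in this list partly follows from that filter. Neither was tested with at least 10 counts required in every library.

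Many glutathione genes and other targets of Nrf2 rose. Of 23 tested, 7 were raised DEGs (6 to 10 with 1 of the 4 libraries left out), 12 rose at an adjusted p below 0.05 and 22 had a positive log2 fold change (median 0.66). The median was 0.80 in lane 3, 0.57 in lane 6, and 0.76 with 9 raised DEGs with the GC trend in the offsets. Hmox1 (ENSMUSG00000005413, chromosome 8, 75093621 to 75100589), the heme oxygenase, was at 761 and 674 CPM in the LPS libraries and 1459.9 and 1921 CPM in the FruArg+LPS libraries (1.23, SE 0.21, edgeR adjusted p = 4.7e-06), against 140.0 and 188 CPM in control cells. Both FruArg+LPS values lay above both LPS values, and the LPS values above the control values, and the log2 fold change was 0.91 without LPS replicate 2, under 2-fold. Of the glutathione transferases, Gsta3 rose from 6.50 and 12.8 to 27.7 and 33.6 CPM (1.72, SE 0.28, edgeR adjusted p = 3.1e-06), and Gstp1 from 24.0 and 30.4 to 81.6 and 65.2 CPM (1.43, SE 0.20, edgeR adjusted p = 8.3e-08). Mgst2, a microsomal glutathione transferase, rose from 1.37 and 2.11 to 12.6 and 9.5 CPM (2.63, SE 0.50, edgeR adjusted p = 5.6e-05). Its control level was 7.16 and 9.93 CPM, so that FruArg+LPS cells were near control cells and LPS cells were the lower ones. Mgst2 passed the filter on low counts through its FruArg+LPS libraries, so the number of raised DEGs in this list partly follows from that filter. With at least 10 counts required in every library Mgst2 was still raised (2.59). The transferases Gstm5 (0.83, SE 0.44, edgeR adjusted p = 0.2) and Mgst1 (-0.05, SE 0.17, edgeR adjusted p = 0.88), the latter named after its values were seen, did not pass the test. Of the ferritin chains, the light chain Ftl1 rose from 379 and 288 to 1228 and 687 CPM (1.48, SE 0.19, edgeR adjusted p = 1.3e-08), while the heavy chain Fth1 was at 7219 and 7257 CPM with LPS and 6283 and 9209.8 CPM with FruArg+LPS (0.08, SE 0.24, edgeR adjusted p = 0.86), with overlapping groups. Ftl1 has near-identical pseudogenes, with which its reads may have been divided. Mt2, a metallothionein that binds zinc and copper, was at 3.25 and 1.29 CPM with LPS and 36.0 and 7.60 CPM with FruArg+LPS (3.10, SE 0.38, edgeR adjusted p = 2.5e-09), with the highest value in FruArg+LPS replicate 1 and a log2 fold change of 2.45 without FruArg+LPS replicate 1. Mt2 also passed the filter on low counts through its FruArg+LPS libraries. With at least 10 counts required in every library it was still raised (3.07).

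Genes of glycolysis and the hypoxia response also leaned upward, with 2 raised DEGs of 20 tested (2 to 4 with 1 of the 4 libraries left out), 8 raised at an adjusted p below 0.05, and a median log2 fold change of 0.40 (0.27 with the GC trend in the offsets). The DEGs were Gapdh, from 105 and 71.5 to 341 and 165 CPM (1.46, SE 0.18, edgeR adjusted p = 1.2e-09), and enolase Eno1, from 199 and 139.8 to 421 and 309.9 CPM (1.12, SE 0.18, edgeR adjusted p = 1.4e-06, and 0.80 with the GC trend in the offsets). Both have many near-identical pseudogenes, so their counts are uncertain. Aldoa, the most abundant member, was at 2778 and 1878 CPM with LPS and 3568 and 3335 CPM with FruArg+LPS (0.60). Its call was lost under other scalings, with a filter of at least 10 counts in every library (0.57), without FruArg+LPS replicate 2 (0.48), without LPS replicate 2 (0.38) and with the GC trend in the offsets (0.30). Subunits of the respiratory chain encoded in the nucleus had 17 of 75 members raised at an adjusted p below 0.05 and 1 raised DEG (0 to 4 with 1 of the 4 libraries left out, median 0.28), Uqcr10 of complex III, from 122 and 103 to 314 and 187 CPM (1.12, SE 0.17, edgeR adjusted p = 1.2e-06, 0.94 with the GC trend in the offsets, 0.88 without FruArg+LPS replicate 1 and 0.98 without LPS replicate 1). The DEG with the GC trend in the offsets was Cox7c of complex IV (1.35, and 0.91 without it), named after its values were seen. None of the 7 tested mitochondrially encoded protein genes was called by edgeR or by DESeq2, with 0 at an unadjusted p below 0.05, and their median of -0.03 became 0.40 with the GC trend in the offsets. Mitochondrial genes took 2.62% and 3.02% of the counts of the LPS libraries and 4.19% and 3.01% of those of the FruArg+LPS libraries.

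Some chaperone genes fell, and stress response genes moved in both directions. Of 20 endoplasmic reticulum chaperones and unfolded protein response genes, 8 fell at an adjusted p below 0.05, with 0 DEGs in edgeR, 11 at an unadjusted p below 0.05 and 1 in DESeq2 with the lane (Dnajb9, named after its values were seen). The list had 0 to 1 lowered DEGs with 1 of the 4 libraries left out and a median of -0.35. Hspa5 (BiP), their most abundant member, was at 5571 and 7119.6 CPM with LPS and 2907 and 4104 CPM with FruArg+LPS (-0.86, SE 0.23, edgeR adjusted p = 0.0046), without overlap of the groups. Among 10 cytosolic heat shock proteins (median -0.72) Dnaja1 was the DEG (-1.06). Its call was lost with the GC trend in the offsets (-0.72), in DESeq2 with the lane as a term (-1.09) and without LPS replicate 1 (-0.96), and its change was under 2-fold at -0.99 without FruArg+LPS replicate 2. Bag3 took its place as the DEG with the GC trend in the offsets (-1.46), a gene that did not pass the test without it (-1.18) and was named after its values were seen. The constitutive proteasome, with 0 DEGs in edgeR and 15 at an unadjusted p below 0.05 and 0 in DESeq2 with the lane, had 29 of 34 members with a negative log2 fold change, 7 of them with an adjusted p below 0.05. Its median was -0.27, and it had 0 to 1 lowered DEGs with 1 of the 4 libraries left out. In the ATF4 amino acid stress response 2 genes were lowered and 2 raised DEGs of 21 tested (1 to 2 and 0 to 2 with 1 of the 4 libraries left out, median 0.06). Nupr1, a stress-induced chromatin protein, fell from 300.2 and 289 to 57.3 and 122 CPM (-1.79, SE 0.19, edgeR adjusted p = 3.4e-11), and the transcription factor Ddit3 (CHOP) from 854 and 638 to 342 and 355 CPM (-1.07, SE 0.19, edgeR adjusted p = 1.4e-05, -0.95 with the GC trend in the offsets and -0.80 without FruArg+LPS replicate 1). Neither overlapped between groups, and in Nupr1 lane 3 gave the larger change, -2.38 in lane 3 and -1.24 in lane 6, and the fit gave -2.39 without FruArg+LPS replicate 2. The related factor Atf5 (1.20) and the glycine transporter Slc6a9 (1.09) rose, each by less than 2-fold with the GC trend in the offsets (0.72 and 0.78) or without FruArg+LPS replicate 1 (0.96 and 0.86), and Atf5 also without LPS replicate 1.

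Cell cycle lists held few DEGs, beside 3.48% lowered and 2.87% raised over all genes tested. Counts of 1 or 2 genes in a list are too few to set against these shares. DNA replication genes had 2 lowered DEGs of 21 tested (1 to 5 with 1 of the 4 libraries left out) and 19 negative log2 fold changes (median -0.45). The S phase cyclin Ccne2, a lowered DEG, fell from 4.75 and 10.8 to 0.688 and 2.66 CPM (-2.26, SE 0.56, edgeR adjusted p = 0.0024), with a change not past the test without LPS replicate 2 (-2.0) and at -2.98 without FruArg+LPS replicate 2. Pcna, the replication clamp and the most abundant member, was at 80.5 and 91.5 CPM with LPS and 90.5 and 68.0 CPM with FruArg+LPS (-0.12, SE 0.19, edgeR adjusted p = 0.71), with overlapping groups. Of 19 mitosis genes only the kinetochore motor Cenpe was a DEG (-1.82), and its call was lost under other scalings, with the GC trend in the offsets (-1.56), without FruArg+LPS replicate 1 (-1.08) and without LPS replicate 1 (-1.41), with -3.37 without FruArg+LPS replicate 2. The median of the mitosis list was -0.42 (-0.21 with the GC trend in the offsets), and it held 0 to 3 lowered DEGs with 1 of the 4 libraries left out. Targets of p53 had 1 raised DEG of 13 (0 to 1 raised and 0 to 1 lowered with 1 of the 4 libraries left out, median -0.01), Zmat3 (1.21). It did not pass the test under other scalings, with a filter of at least 1 count (1.19), with the GC trend in the offsets (1.26), without FruArg+LPS replicate 1 (0.88), LPS replicate 1 (1.35) or LPS replicate 2 (1.07). In FruArg+LPS replicate 1, Ccne2 had 3 counts and Cenpe 2, and both passed the filter on low counts through their LPS libraries. The numbers of lowered DEGs in the DNA replication and mitosis lists partly follow from that filter. Cdk5, a kinase of postmitotic cells that the study names, rose from 17.2 and 13.7 to 45.4 and 33.1 CPM (1.34, SE 0.24, edgeR adjusted p = 2.5e-05). Histone cluster genes, whose transcripts mostly lack a poly-A tail and were sampled from poly-A RNA, had 1 lowered (Hist3h2a, -2.03) and 1 raised DEG (Hist1h3e, 1.59) of 35 tested (1 to 3 and 0 to 3 with 1 of the 4 libraries left out). The call of Hist1h3e was lost in DESeq2 with the lane as a term (1.58) and without FruArg+LPS replicate 1 (1.24) or LPS replicate 2 (1.11).

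Surface and lineage genes moved in both directions. Cd81, a tetraspanin that organizes receptors in the membrane, was at 57.5 and 46.0 CPM with LPS and 182 and 153 CPM with FruArg+LPS (1.71, SE 0.18, edgeR adjusted p = 2.4e-11). The control libraries held 97.7 and 96.5 CPM, between the LPS and the FruArg+LPS libraries. Of 11 tetraspanins 10 had a positive log2 fold change and 2 were raised DEGs (median 0.50), the other being Tspan4, from 22.4 and 13.9 to 52.3 and 31.9 CPM (1.22, and 0.87 with the GC trend in the offsets). Csf1r, the receptor of the macrophage growth factor, rose from 296 and 259 to 666 and 594 CPM (1.19, SE 0.18, edgeR adjusted p = 9.7e-07, and 0.98 with the GC trend in the offsets), with no overlap, and it was the DEG of the 11 microglial receptor and identity genes tested (median -0.25, -0.47 in lane 3 and 0.12 in lane 6). At an adjusted p below 0.05, 3 members of the list rose, Csf1r among them, and 1 fell. The member that fell was C1qb, a chain of complement C1q (-0.70, SE 0.18, edgeR adjusted p = 0.0042), with the call lost without LPS replicate 1 (-0.58). With the GC trend in the offsets the list had a median of -0.58, and its DEG was C1qb (-1.02), a gene named after its values were seen. With a library left out the list held 0 to 1 lowered DEGs. Among 7 Id proteins and SMAD feedback genes (0 to 2 raised DEGs with 1 of the 4 libraries left out, median 0.61) Smad7, an inhibitor of TGF-beta signalling, was the DEG (1.5). Its call was lost without LPS replicate 1 (1.67) or LPS replicate 2 (1.3) and with the GC trend in the offsets (1.20). Sterol and fatty acid synthesis had 1 raised DEG of 23 (1 to 3 raised and 0 to 1 lowered with 1 of the 4 libraries left out, median 0.20), the fatty acid synthase Fasn, from 34.2 and 26.7 to 72.7 and 62.1 CPM (1.16, SE 0.19, edgeR adjusted p = 5.6e-06, and 0.82 with the GC trend in the offsets), against 134 and 113 CPM in control cells. Lysosomal genes had 0 DEGs in edgeR among 26 tested, with 7 at an unadjusted p below 0.05 and 0 in DESeq2 with the lane (median -0.03).

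Some leading genes belong to none of these groups. The lowered genes included Cep57l1, a relative of the centrosomal protein Cep57, at 28.2 and 47.5 CPM with LPS and 4.35 and 6.08 CPM with FruArg+LPS (-2.84), Napb, the brain form of the SNAP protein of vesicle fusion, at 11.5 and 8.46 CPM with LPS and 0 and 1.71 CPM with FruArg+LPS (-3.46), and AA467197, at 32.7 and 64.1 CPM with LPS and 4.58 and 12 CPM with FruArg+LPS (-2.58). The raised genes included the phospholipid flippase Atp9a, at 3.50 and 2.67 CPM with LPS and 14.0 and 11.8 CPM with FruArg+LPS (2.07), the complex I assembly factor Ndufaf3, at 4.12 and 2.57 CPM with LPS and 18.6 and 11.6 CPM with FruArg+LPS (2.17), and the kinesin Kifc3, at 3.50 and 0.827 CPM with LPS and 14.7 and 4.56 CPM with FruArg+LPS (2.23). In all 6 the groups did not overlap. Napb and Kifc3 moved by more than 1.5 times with a library left out, Napb to -2.74 without FruArg+LPS replicate 1, to -2.78 with LPS replicate 1 removed and to -4.51 with LPS replicate 2 removed, and Kifc3 to 1.62 without FruArg+LPS replicate 1 and 2.90 without LPS replicate 1. FruArg+LPS replicate 1 had no count of Napb, so no fold is given without FruArg+LPS replicate 2. Besides protein-coding genes, the lowered DEGs (3.48% of all genes tested) held 51 of the 899 processed pseudogenes tested, 2 of 143 snoRNA and 2 of 127 snRNA genes. The raised DEGs (2.87% of all genes tested) held 19, 11 and 10 of them. Counts of such genes are uncertain, since they can share reads with their parent or host genes. The same holds for the cytosolic ribosomal proteins, of which 3 of 76 were lowered and 8 raised DEGs (median 0.12, with 3 raised without FruArg+LPS replicate 1 and 3 without LPS replicate 1). Rps15a (-1.11) and Rpl13 (-1.12) were among the lowered ones, named after their values were seen. With the GC trend in the offsets Rps15a was under 2-fold (-0.97), and the list had 2 lowered and 7 raised DEGs. Of the 25 genes examined because the study names them for FruArg, which are not an independent choice, 3 were lowered, Nupr1 and Nos2 among them, and 11 raised DEGs (median 0.83), with 10 raised with the GC trend in the offsets.

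FruArg is a constituent of AGE, and both co-treatments were compared directly, at 3 mM FruArg and 0.5% v/v AGE, doses that were not matched. Of 11915 genes tested, 107 were DEGs, 42 (0.352%) lower and 65 (0.546%) higher with FruArg+LPS. This split depended on the scaling, since library size alone gave 101 lower and 38 higher, with a median log2 difference of -0.15 over all genes in place of -0.02. Without the lane block edgeR called 0 DEGs, with 668 genes at an unadjusted p below 0.05. With all 4 groups in the fit the count was 151, and then 71 without AGE+LPS replicate 1, 8 without AGE+LPS replicate 2, 175 without FruArg+LPS replicate 1 and 818 without FruArg+LPS replicate 2. Ms4a6b, a membrane protein of the Ms4a family, had 53.1 and 66.7 CPM in LPS cells, 23.1 and 35.5 CPM in FruArg+LPS cells and 5.14 and 8.94 CPM in AGE+LPS cells. The AGE+LPS libraries were the lowest, and the log2 difference of FruArg+LPS from AGE+LPS was 2.06 (SE 0.28, edgeR adjusted p = 0.0013), between 1.92 and 2.23 with any 1 of the 4 libraries left out. Hmox1 was at 596 and 895 CPM in the AGE+LPS libraries, beside 1459.9 and 1921 CPM with FruArg+LPS, a log2 difference of 1.19 (SE 0.18, edgeR adjusted p = 0.0019) that was 1.01 and not past the test without AGE+LPS replicate 1. Both FruArg+LPS libraries were above both AGE+LPS libraries. Gapdh (1.12) and Ftl1 (1.08) were likewise higher with FruArg+LPS, and not past the test without AGE+LPS replicate 2 (0.95 and 0.93). Both differences were under 2-fold with library size only (0.985 and 0.945) and without FruArg+LPS replicate 1 (0.87 and 0.79), and that of Ftl1 also with the GC trend in the offsets (0.83). Of 37 antiviral genes, 15 interferon-inducible GTPases and 7 Schlafen genes, edgeR called 1, 0 and 0 higher with FruArg+LPS, and 18, 8 and 3 had an unadjusted p below 0.05. The antiviral gene called was Cmpk2, a mitochondrial nucleotide kinase (1.15, SE 0.21, edgeR adjusted p = 0.0064), named after its values were seen. Ifit1bl1, which is in none of these lists, was also higher with FruArg+LPS (1.04, SE 0.23, edgeR adjusted p = 0.015), with the difference under 2-fold with library size only (0.91) and not past the test without AGE+LPS replicate 2 (0.67) or FruArg+LPS replicate 2 (0.69). The median log2 differences of the lists were 0.37, 0.49 and 0.39. Mx1 was at 14.0 and 18.5 CPM in AGE+LPS cells, below FruArg+LPS replicate 2 and around FruArg+LPS replicate 1 (0.74, SE 0.27, edgeR adjusted p = 0.14), and Cxcl2 at 1286 and 1449.8 CPM, close to its FruArg+LPS level (0.15, SE 0.18, edgeR adjusted p = 0.71). A difference that was not called does not show that the co-treatments acted alike at these numbers of libraries.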

How the data were processed

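Poly-A RNA of BV-2 cells was read as 100 nt single-end reads. Per the study's methods and the submitters' processing notes, the authors prepared reads with fastx_toolkit, aligned them to GRCm38 with TopHat2 and deposited featureCounts counts per gene, as whole numbers without normalization. The annotation release, strand setting and treatment of multi-mapping reads are not given in the sources used here. Of 46078 genes counted, 45229 were matched by identifier to GENCODE M21, which gave symbols, positions and GC content.

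From these counts, genes were filtered with filterByExpr, scaled by TMM and tested with edgeR 4.0.16 (R 4.3.3) by a two-sided quasi-likelihood F-test with lane as a block (residual df 1, prior df 69.1), on the 4 libraries of each comparison, with Benjamini-Hochberg adjustment over all genes tested. DESeq2 1.42.0 was an alternative. The labels put replicate 1 of each group in lane 3 and replicate 2 in lane 6, so the number pairs libraries by lane, and the lane difference of FruArg+LPS and of LPS correlated at 0.39 across 12071 genes, which are not independent replicates. Changes within lanes used log2 CPM with a prior count of 2. The GC trend was fitted as a lowess curve (span 0.3) and added to the offsets. A fit with 1 library left out used all 4 groups, and the lone library of its group was assumed to vary like the others. The p-values measure only the spread between these libraries, which the series calls biological replicates. Counting intervals cover counting error only.

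Named genes were the leading 12 lowered and 12 raised DEGs by size of change, required to average 5 CPM or more and to move 2-fold or more within each lane, up to 4 leading DEGs and the most abundant member of each list, and genes the study names. The comparison, its members and the lists were chosen with earlier results of these data known. Alternatives were DESeq2, RLE size factors, library size only, no minimum fold, no block, looser and stricter filters (1 count over the libraries, 10 counts in each), all 4 groups in 1 fit, the GC trend in the offsets, and leaving out each library. The scripts were tested on simulated counts. Some genes of the lists are counted but not reported by name here.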

Additional observations from a re-analysis of the deposited data

How the results depend on the processing

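The number of DEGs between FruArg+LPS and LPS, and its split into lowered and raised genes, was within 1.5 times of the values above with RLE size factors, library size only, either other filter, or all 4 groups in 1 fit. Without the lane block edgeR called 0 DEGs, 0 lowered and 0 raised, with 1543 genes at an unadjusted p below 0.05. With the GC trend in the offsets there were 509 DEGs with the block, of which 217 were raised, and without the block 1 DEG, the raised Mmp12, and 0 lowered, with 1912 genes at an unadjusted p below 0.05. DESeq2 with the lane as a term called 380 (237 lowered, 143 raised), and by group only 194 (103 and 91). Without a minimum on the fold change edgeR called 2123 (1130 and 993), since fewer conditions were set. With all 4 groups in 1 fit there were 853 DEGs, and in fits of that form with 1 library left out the count ranged from 507 to 1846, lowered from 286 to 1071 and raised from 221 to 775.

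Of the 126 named genes tested, no log2 fold change that passed the test reversed its sign under any alternative. Of these genes 97 passed the test in the fit with the lane as block, and all 97 calls were lost without the block. With the GC trend in the offsets, 8 of the 97 calls were lost with the block and 96 without it. DESeq2 gave an adjusted p to 112 of the 126 by group only and to 108 with the lane, numbers that include genes with no call to lose. It lost 37 and 7 calls. With at least 10 counts required in every library, 113 of the 126 were tested. Those not tested included Ms4a4c, Iigp1, Ccne2 and Cenpe, with few counts in FruArg+LPS cells, and Cxcl3, Csf2, Serpinb2 and Mmp9, with few in LPS cells. Left out, LPS replicate 1 cost 19 calls, LPS replicate 2 14, FruArg+LPS replicate 1 8 and FruArg+LPS replicate 2 3. Between FruArg+LPS and AGE+LPS edgeR called 0 DEGs without the block, with 668 genes at an unadjusted p below 0.05, 151 with all 4 groups in 1 fit, and 8 to 818 in fits of that form with 1 library left out. The cause of these differences was not tested. With 2 libraries a group and 1 residual degree of freedom, the spread of each gene rests mostly on that of all genes, and for genes with few counts the depth limits which folds could be resolved.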
